A study of Mus musculus with 6 samples.

Results

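Potassium channel genes were taken as every gene of the deposited mouse table whose symbol starts with Kcn, without the 3 antisense symbols that end in os. The rule gave 95 of 24532 genes, of which 94 code for channel subunits or their partners and 1, Kcnq1ot1, is a non-coding antisense transcript of the Kcnq1 locus that is given apart. The 94 coding members were divided by the letter after Kcn into inward rectifiers (Kcnj, 15 genes), tandem-pore channels (Kcnk, 14), voltage-gated alpha subunits (Kcna, Kcnb, Kcnc, Kcnd and Kcnq, 22), ether-a-go-go channels (Kcnh, 8), modifier subunits that form no channel alone (Kcnf, Kcng, Kcns and Kcnv, 10), calcium- or sodium-activated channels (Kcnma, Kcnn, Kcnt and Kcnu, 8), auxiliary subunits (Kcnab, Kcne, Kcnip and Kcnmb, 16) and Kcnrg, a regulator that stands alone.

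Potassium channels let potassium leave the cell down its gradient and so set the membrane voltage. In the tubule they recycle and secrete potassium and keep the sodium-potassium pump running, and inward rectifiers at the luminal and blood-facing membranes are the best known of them. In smooth muscle, calcium-activated and voltage-gated channels oppose the depolarization that opens calcium channels, and in urothelium they are held to take part in ion transport and stretch responses.

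The samples were bulk RNA from newborn mice (PN1), with 2 kidney libraries and 1 ureter library of Ahnak KO animals and the same numbers of WT animals, 6 in all. The KO allele disrupts exon 5 of Ahnak, and Ahnak is a large scaffold protein that the study examined for a part in calcium handling and in the dilated kidney and ureter of KO mice. RNA came from 2 to 4 organs per the methods, which do not tie a number to each library, so the p-values below measure only the spread between these libraries. The ureter libraries carry the title number 3 of a kidney series, and their tissue was taken from the source label.

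Counts summed to between 55744703 and 66095616 in the kidney libraries, 36410246 in the KO ureter and 54985927 in the WT ureter. Ahnak stood at 139 and 131 CPM (counts scaled to a common library size with TMM factors over the 6 libraries) in KO kidneys, 184 and 190 in WT kidneys, 631 in the KO ureter and 728 in the WT ureter. The kidney difference did not pass the test (log2 change -0.47, SE 0.096, edgeR adjusted p = 0.999853), and in TPM the KO ureter, at 88 TPM, lay above the WT ureter, at 77.5 TPM. The table sums each gene over its transcripts and does not resolve exon 5, so the level of Ahnak does not check the KO label, and KO and WT are used here as the labels give them. The KO kidney 1 library had 2908 CPM of the female transcript Xist and 0 of 4 Y-linked genes, the reverse of the other 5 libraries. The tissue labels matched their markers: the 8 tubule and podocyte markers summed to between 1234 and 1539 CPM in kidneys and to 6.64 and 5.0 CPM in the ureters, with Umod, Aqp2 and Slc34a1 at 0 there, and the 6 urothelial markers summed to 6972 and 6458 CPM in the ureters against at most 61.6 CPM in a kidney. The 6 smooth muscle markers summed to 6836 and 7574 CPM in the ureters and to between 496 and 587 CPM in kidneys. The KO ureter library held 8.06% of its counts on the ribosomal transcript Rn45s, against 0.626% in the WT ureter.

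The coding members together reached between 319 and 353 TPM (a level per transcript length, with the same total in every library) in the kidney libraries, 276 TPM in the KO ureter and 334 TPM in the WT ureter. Of the 94, 8 were listed at 0 in every library (Kcna4, Kcna10, Kcnh6, Kcnk9, Kcnk12, Kcnk15, Kcnk16 and Kcnmb3), and Kcnk18 was the only other that never passed 3 counts. KO kidney 1 listed 23 members at 0, each of the other 3 kidney libraries 13, and each ureter library 31. The 5 members with the highest level held 48.2% of all Kcn TPM in kidney and 60.3% in ureter.

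**Figure D1:**
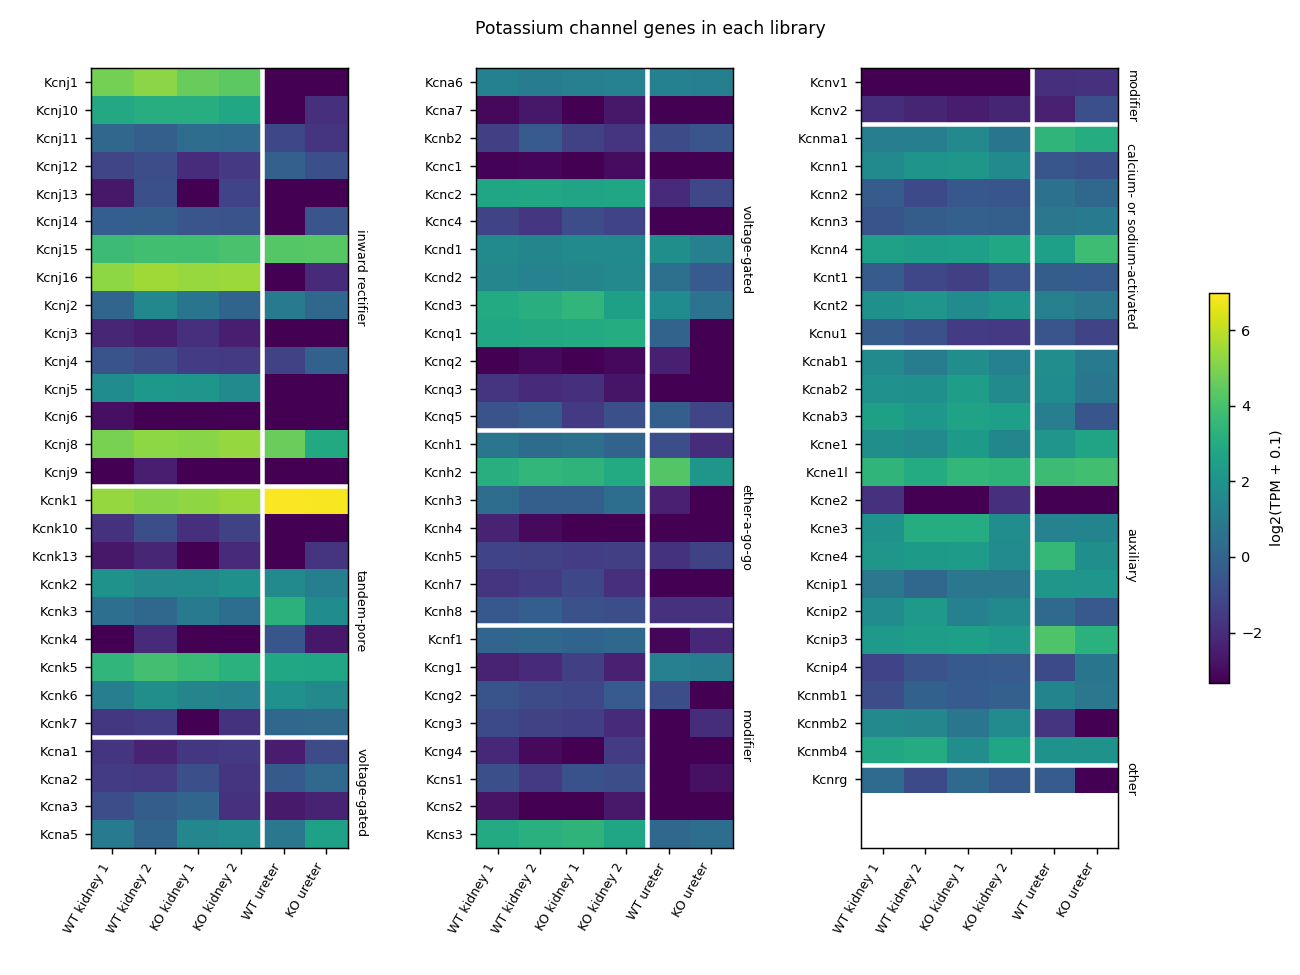
Level of 82 coding Kcn genes with more than 3 counts in some library, as log2(TPM + 0.1), with 1 column a library and rows grouped by class, the kidney columns left of the white line. Kcnk1 is the brightest row in the ureters, at 119 and 122 TPM, and Kcnj1 and Kcnj16 are bright in all 4 kidneys and at or near 0 in the ureters.

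In kidney the highest levels belonged to 3 inward rectifiers and Kcnk1. Mean TPM over the 4 kidney libraries was 42.3 ± 3.12 (SD, n = 4) for Kcnj16, 39.6 ± 3.1 for Kcnk1, 36.5 ± 4.75 for Kcnj8, 27.7 ± 6.89 for Kcnj1, 14.8 ± 1.23 for Kcnj15 and 12 ± 2.37 for Kcnk5. Kcnj16 and Kcnk1 lay within each other's spread, and so did Kcnk1 and Kcnj8, while Kcnj15 lay below all kidney values of Kcnj1. In ureter Kcnk1 stood alone at 119 TPM (KO) and 122 TPM (WT), and the gene next to it by mean level, Kcnj15, reached 20 and 19.5 TPM. By class, inward rectifiers made up between 39.0% and 43.6% of all Kcn TPM in kidneys and 11.2% (KO) and 14.2% (WT) in the ureters. Tandem-pore channels made up between 16.7% and 18.7% in kidneys and 48.9% and 44.0% in the ureters. Neither range overlapped between the tissues, and nor did those of the auxiliary, calcium- or sodium-activated, modifier and voltage-gated shares. Shares of a fixed total depend on each other. An exact permutation test over libraries gave a two-sided p of 0.133 for each of these shares, which is the smallest p that 2 libraries against 4 allow. In bulk RNA, fewer cells of a type and less RNA per cell cannot be told apart, here or in the comparisons that follow.

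**Figure D2:**
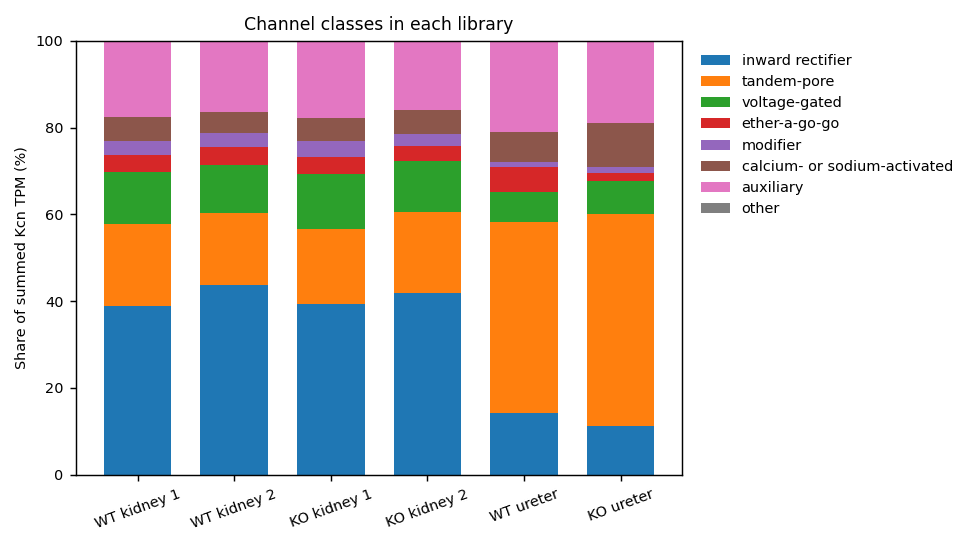
Share of the summed Kcn TPM held by each class in each library, as stacked bars that add to 100%. The inward rectifier part runs from 39.0% to 43.6% in the kidneys and is 14.2% and 11.2% in the ureters, where the tandem-pore part, mostly Kcnk1, takes 44.0% and 48.9%.

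The tissues differed widely in their channel genes. With edgeR's quasi-likelihood test, genotype as a term and Benjamini-Hochberg adjustment over 16873 genes, 21 of the 76 coding members tested (27.6%) were higher in kidney and 16 (21.1%) were lower, with 0.05 as the threshold on the adjusted p. The whole table gave 23.7% higher in kidney and 21.4% lower, so both shares were near the background. The median log2 change of kidney over ureter was 0.27 over the members and 0.08 over all genes. The split over all genes depends on the scale: it was 3992 higher to 3603 lower on counts and 7303 to 2297 with limma on log2(TPM + 1), where the median of all genes lay at 0.34, while the members gave 24 and 13 calls there. By class, 5 inward rectifiers of 13 tested were higher in kidney and 2 lower, 6 voltage-gated subunits of 17 were higher and 2 lower, 3 ether-a-go-go channels of 6 were higher and none lower, and 2 of 9 modifier subunits went each way. Tandem-pore channels gave 1 higher and 2 lower of 8, calcium- or sodium-activated channels 1 higher and 3 lower of 8, and auxiliary subunits 3 higher and 5 lower of 14. All 37 calls were also made by the Wald test of DESeq2. Leaving out each library in turn, 12 of the 21 higher and 9 of the 16 lower calls held every time, and no sign changed. In a fit of only the 4 libraries whose column names end alike in kidney and ureter, which leaves out KO kidney 1 and WT kidney 1, 19 of the 37 calls held, with 8 members higher and 11 lower in kidney.

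**Figure D3:**
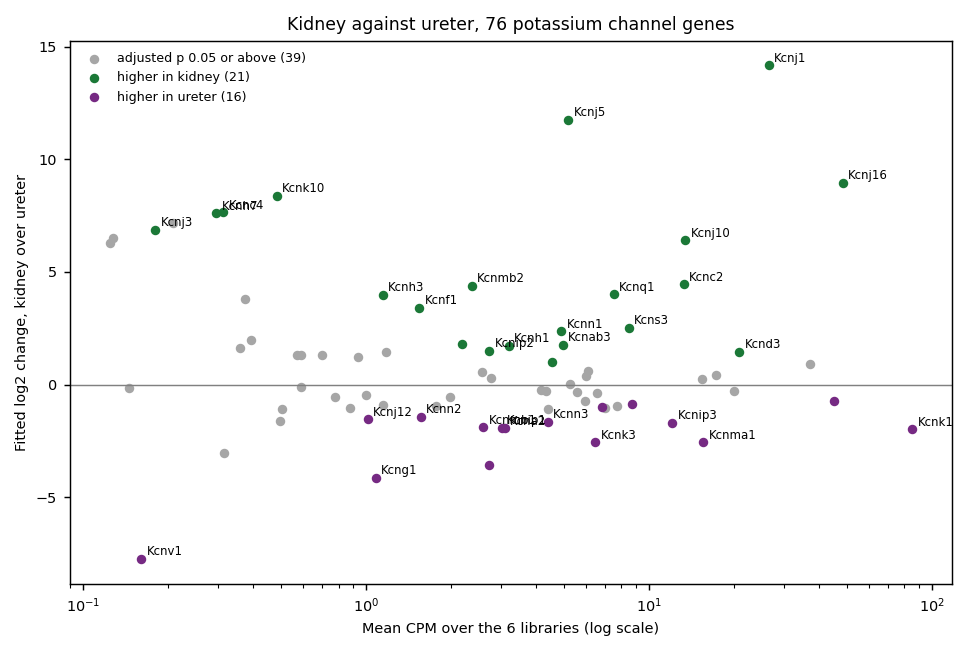
Fitted log2 change of kidney over ureter against mean CPM (log axis) for the 76 coding members tested, with 21 genes higher in kidney in green, 16 higher in ureter in purple and the other 39 in grey. Kcnj1, Kcnj5 and Kcnj16 stand highest, and their exact heights depend on the small count edgeR adds where ureter counts are 0 or near it.

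Inward rectifiers of the tubule showed the largest contrasts. Kcnj1, the channel that secretes and recycles potassium in the thick ascending limb and collecting duct, had 34.6 and 31.3 CPM in KO kidneys and 40.5 and 52.7 CPM in WT kidneys, and both ureter libraries listed it at 0. With a limit of 3 counts in each ureter library (0.10 CPM in KO and 0.0583 CPM in WT, counting error only), its mean in kidney was at least 502-fold higher (edgeR adjusted p = 2.99e-05). Kcnj16 and Kcnj10, which together form the blood-facing channel of the distal tubule, behaved alike in kidney. Kcnj16 stood at 72.2 and 76.2 CPM in KO kidneys and 64.7 and 76.9 CPM in WT kidneys, against 0.367 CPM in the KO ureter and 0 in the WT ureter (log2 change 8.97, SE 0.68, edgeR adjusted p = 0.000159). Kcnj10 stood at 21.2 and 18.7 CPM in KO kidneys and 18.8 and 21.4 CPM in WT kidneys, against 0.601 and 0 CPM in the ureters (log2 change 6.41, SE 0.93, edgeR adjusted p = 0.00226). No kidney value of these 3 genes came near a ureter value. Kcnj5, a G protein-gated subunit known from adrenal cortex and atrium, had between 6.55 and 9.19 CPM in the kidneys and 0 in both ureters, at least 98.2-fold higher in kidney (edgeR adjusted p = 0.000207). The 4 adrenal cortex markers summed to between 2.07 and 3.18 CPM in kidneys and to 5.64 and 3.77 CPM in the ureters, but they did not move together. Cyp11a1 made up 4.77 and 3.0 CPM of the ureter sums, while Star (between 1.4 and 2.62 CPM in kidneys, 0.868 and 0.778 CPM in the ureters) and Hsd3b1 (at most 0.346 CPM in a kidney, 0 in the ureters) lay higher in all kidneys, as Kcnj5 did. Their part in the Kcnj5 result was not tested. Kcnj3, its usual partner, was low, with between 0.181 and 0.396 CPM in kidneys and 0 in the ureters, and its call was lost without the KO ureter, WT ureter, WT kidney 1 or WT kidney 2 library (edgeR adjusted p up to 0.0941).

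Other inward rectifiers went the opposite way or did not pass the test. Kcnj15, known from the proximal tubule, had between 32.2 and 43.3 CPM in kidneys and 66.6 and 56.7 CPM in the ureters (log2 change -0.75, SE 0.11, edgeR adjusted p = 0.00215), so all ureter values lay above all kidney values. Kcnj12, a classical strong rectifier of muscle, was called lower in kidney (log2 change -1.54, edgeR adjusted p = 0.0489), a call that was lost without any 1 of the 6 libraries, with adjusted p between 0.0823 and 0.188. Kcnj8, the pore of the ATP-sensitive channel of vascular smooth muscle and pericytes, had between 35.7 and 51.3 CPM in kidneys and 12.6 (KO) and 35.9 (WT) CPM in the ureters (edgeR adjusted p = 0.0974). Kcnj11, the pore of the other ATP-sensitive channel, had between 1.13 and 1.73 CPM in kidneys and 0.400 and 0.661 CPM in the ureters, without passing the test (edgeR adjusted p = 0.0728). Kcnj2, widely expressed, spread from 2.38 to 6.96 CPM among the WT kidneys alone and gave an adjusted p of 0.68 with edgeR.

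The stretches of 100 bases before the annotated start are shown for Kcnj1 and Kcnj16, inward rectifiers with high levels in kidney and counts at or near 0 in the ureters, and for the alpha subunit and smooth muscle beta subunit of a calcium-activated channel that were both higher in ureter, Kcnma1 and Kcnmb1. They come from RefSeq on GRCm38.p6, which is the assembly that the submitters' notes call mm10, and capitals mark the dinucleotide CG. Where a gene has several starts, the one with the lowest coordinate is used.
Kcnj1 (chr9:32393885-32393984, plus strand): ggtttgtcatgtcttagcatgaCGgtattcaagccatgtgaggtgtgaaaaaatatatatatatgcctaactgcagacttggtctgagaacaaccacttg
Kcnj16 (chr11:110967933-110968032, plus strand): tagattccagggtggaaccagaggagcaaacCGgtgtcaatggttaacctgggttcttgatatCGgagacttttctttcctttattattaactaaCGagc
Kcnma1 (chr14:24004206-24004305, minus strand): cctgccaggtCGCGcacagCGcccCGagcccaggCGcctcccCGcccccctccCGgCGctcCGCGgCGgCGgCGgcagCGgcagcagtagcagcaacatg
Kcnmb1 (chr11:33962913-33963012, plus strand): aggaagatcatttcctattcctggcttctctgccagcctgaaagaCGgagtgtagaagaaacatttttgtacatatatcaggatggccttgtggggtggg

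Over the 250 bases before the start, Kcnma1 held 31 CG dinucleotides, Kcnj16 held 3, Kcnj1 held 2 and Kcnmb1 held 1. The direction of the tissue difference did not sort the members by this measure: the median was 7.5 CG in 26 promoter windows of members higher in kidney, 5.0 in 14 windows of members lower in kidney, and 6.0 over all 32851 promoter windows. The letters GTTAAT on either strand, a part of the motif of the tubule factor HNF1, were found in 1 window each of Kcnj16, Kcns3, Kcnab1 and Kcne2, and the window of Kcnj16 is 1 of 4 that it has. That is 4.26% of the 94 windows of members against 6.43% of all promoters. These 94 windows come from 69 of the 94 coding members, with several for some genes and none for the rest. They cover 17 of the 21 members higher in kidney and 10 of the 16 lower. The CArG box (either strand) of smooth muscle genes was in none of the member windows and in 1.47% of all promoters. In RefSeq the genes Kcnj1 and Kcnj5 lie 28.0 kb apart on chromosome 9, and they shared their direction. Kcnj16 and Kcnj2 lie 38.2 kb apart on chromosome 11, and of these only Kcnj16 passed the test. Kcnj9 lies 11.9 kb from Kcnj10 and had counts in 1 kidney library alone. Of 9 pairs of members within 100 kb of each other, 2 had both genes called, and both of these pairs went the same way.

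**Figure D4:**
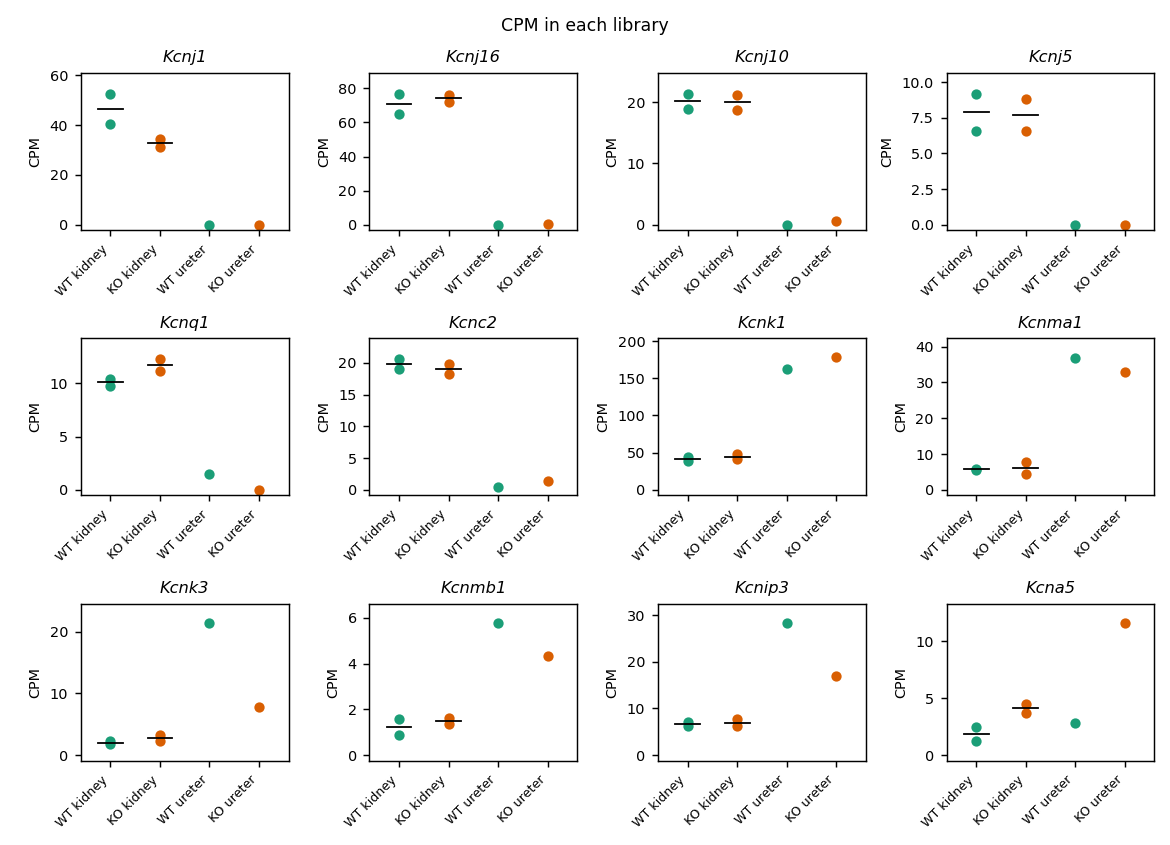
CPM of 12 potassium channel genes in the 6 libraries, with 1 point a library, WT in green and KO in orange, a bar at the mean of 2 kidney libraries and a linear axis from 0 in each panel. Kcnj1, Kcnj16, Kcnj10 and Kcnj5 lie at or near 0 in both ureters, while Kcnk1, Kcnma1, Kcnk3, Kcnmb1 and Kcnip3 lie higher in both ureters than in any kidney.

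Among voltage-gated subunits, those called higher in kidney included Kcnc2, Kcnq1 and Kcnd3. Their mean TPM over the kidney libraries was 8.33 ± 2.14 (SD, n = 4) for Kcnd3, 7.64 ± 0.63 for Kcnq1 and 6.69 ± 0.34 for Kcnc2. Kcnc2, a fast delayed rectifier best known from interneurons, had 18.3 and 19.8 CPM in KO kidneys and 19.0 and 20.7 CPM in WT kidneys, against 1.47 (KO) and 0.467 (WT) CPM in the ureters (log2 change 4.45, SE 0.44, edgeR adjusted p = 0.000483). Kcnq1, a slow channel that pairs with Kcne subunits in heart and epithelia, had 11.1 and 12.3 CPM in KO kidneys and 9.73 and 10.4 CPM in WT kidneys, against 1.52 CPM in the WT ureter and 0 in the KO ureter (log2 change 4.01, SE 1.05, edgeR adjusted p = 0.0219). This call was lost without KO kidney 2 (adjusted p = 0.0508) or WT kidney 2 (adjusted p = 0.0531), and the size rested on the ureters, with a log2 change of 2.73 without the KO ureter. Kcnq1 overlaps the antisense transcript Kcnq1ot1, and it is not stated whether the counting used the strand. Kcnq1ot1 itself had between 45.9 and 67.0 CPM in kidneys and 91.7 (KO) and 53.8 (WT) CPM in the ureters and did not pass the test (edgeR adjusted p = 0.215). Kcnd3, a channel of transient outward currents, had 34.4 and 19.5 CPM in KO kidneys and 24.3 and 27.1 CPM in WT kidneys, above 6.74 and 13.1 CPM in the ureters (edgeR adjusted p = 0.0149, and 0.0878 without the KO ureter). Its partner Kcnip2, which helps such channels to the membrane, was also higher in kidney (log2 change 1.49, edgeR adjusted p = 0.0188, lost without any 1 of 4 libraries, KO kidney 2, WT kidney 2 and both ureters, at up to 0.077). Kcnc4, a relative of Kcnc2, and Kcnd2 were called in the same direction. The call of Kcnd2 held only without the WT ureter and reached an adjusted p of 0.2 without another library.

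Members in the ureter direction included channels and partners of smooth muscle. Kcnma1, the large-conductance calcium-activated channel, had 32.9 (KO) and 36.8 (WT) CPM in the ureters and between 4.52 and 7.82 CPM in kidneys (log2 change -2.56, SE 0.23, edgeR adjusted p = 0.000339). Its smooth muscle partner Kcnmb1 had 4.34 and 5.78 CPM in the ureters and between 0.859 and 1.64 CPM in kidneys (log2 change -1.90, edgeR adjusted p = 0.00906, and 0.0695 without the WT ureter). In contrast, the partner Kcnmb2 was higher in kidney, with between 2.13 and 4.33 CPM there and 0 and 0.350 CPM in the ureters (edgeR adjusted p = 0.0124), and Kcnmb4 overlapped between tissues (adjusted p = 0.601). Kcnmb1 lies within Kcnip1, which was also higher in ureter, with 6.21 and 5.60 CPM against between 1.05 and 1.83 CPM in kidneys (edgeR adjusted p = 0.00392), and reads of overlapping genes may not be told apart. Small-conductance calcium-activated channels were split: Kcnn3 was higher in ureter (9.11 and 7.0 CPM against between 1.94 and 2.88 CPM, edgeR adjusted p = 0.00256), Kcnn2 too but with a call lost without any 1 of the libraries (adjusted p between 0.0602 and 0.162), and Kcnn1 was higher in kidney (log2 change 2.37, SE 0.32, edgeR adjusted p = 0.00165).

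Kcnk1 had the largest level of any member in ureter. This tandem-pore channel, which passes a weak background current in epithelia and brain, had 178 (KO) and 162 (WT) CPM in the ureters and 41.6, 48.1, 43.9 and 38.2 CPM in the kidneys (log2 change -1.99, SE 0.10, edgeR adjusted p = 4.04e-05). Kcnk3, an acid-sensitive background channel of heart and vessel wall, was also higher in ureter, with 7.81 CPM in KO and 21.3 CPM in WT against between 1.77 and 3.32 CPM in kidneys (log2 change -2.56, SE 0.45, edgeR adjusted p = 0.0053). Kcnk10, a stretch-sensitive relative, had between 0.594 and 1.03 CPM in kidneys and 0 in both ureters, at least 9.17-fold higher in kidney (edgeR adjusted p = 0.00823). Kcnk5, known from the proximal tubule, had between 15.7 and 23.7 CPM in kidneys and 14.2 and 13.4 CPM in the ureters, and although these did not overlap the test gave an adjusted p of 0.128 with edgeR. Kcnk2, another stretch-sensitive channel, had between 4.28 and 6.21 CPM in kidneys and 4.81 and 5.72 CPM in the ureters. Several members with the highest level of their subfamily also lay close between tissues: Kcna6 had between 5.38 and 6.55 CPM in kidneys and 7.88 and 7.45 CPM in the ureters, Kcnd1 between 4.6 and 5.38 CPM against 5.41 and 7.51 CPM, and the sodium-activated Kcnt2 between 5.67 and 7.62 CPM against 4.17 and 4.94 CPM, and none of these 3 passed the test.

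The modifier subunits Kcng1 and Kcns3, which change the gating of the channels they join, went opposite ways. Kcng1 had 2.97 and 2.86 CPM in the ureters and at most 0.313 CPM in a kidney (log2 change -4.14, SE 0.62, edgeR adjusted p = 0.00273), while Kcns3 had between 9.39 and 14.1 CPM in kidneys and 2.34 and 1.75 CPM in the ureters (log2 change 2.53, SE 0.29, edgeR adjusted p = 0.000838). Kcnf1, of the same kind, was higher in kidney (log2 change 3.41, edgeR adjusted p = 0.0148), and Kcnv1 was listed at 0 in all 4 kidneys and at 0.534 and 0.428 CPM in the ureters (edgeR adjusted p = 0.036, lost without either ureter or either WT kidney library, at up to 0.112). Among further auxiliary subunits, Kcnip3, a calcium-binding protein that also acts as a transcriptional repressor, had 16.9 (KO) and 28.4 (WT) CPM in the ureters against between 6.27 and 7.64 CPM in kidneys (log2 change -1.71, SE 0.23, edgeR adjusted p = 0.00158), and Kcne1l was higher in ureter by less (log2 change -0.84, edgeR adjusted p = 0.0145, and 0.0782 without the KO ureter). Kcne1, the classical partner of Kcnq1, was called higher in ureter (log2 change -0.98, edgeR adjusted p = 0.0426), opposite to Kcnq1, with a call that was lost without KO kidney 2, the KO ureter or either WT kidney library, at up to 0.278. Kcnab3, a cytoplasmic beta subunit, was higher in kidney (log2 change 1.78, edgeR adjusted p = 0.0231, lost at up to 0.06 without KO kidney 2, the KO ureter or WT kidney 1). Among ether-a-go-go channels, Kcnh1 (log2 change 1.73, adjusted p = 0.0175, and up to 0.0797 without the KO ureter or WT kidney 1) and Kcnh3 (log2 change 3.99, adjusted p = 0.0251, and up to 0.0705 without KO kidney 2 or either WT kidney) were higher in kidney with edgeR. Kcnh7, of the same class, was listed at 0 in both ureters and was at least 5.60-fold higher in kidney (edgeR adjusted p = 0.0182, and up to 0.0601 without either ureter or WT kidney 2). Kcna2, a delayed rectifier of axons, was higher in ureter (log2 change -1.94, edgeR adjusted p = 0.00817, and 0.0635 without the KO ureter). Neuron and glia markers, 8 genes, summed to 47.6 and 45 CPM in the ureters and to between 27.1 and 33.8 CPM in kidneys, with 4 of the 8 called higher in ureter and 1, Elavl4, higher in kidney (between 10.3 and 16 CPM against 0.667 and 0.836 CPM). Their part in the values of channels known from neurons was not tested.

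Other genes of potassium transport, a list of 45 pumps, cotransporters, regulators and channel partners, leaned toward kidney: 21 of 41 tested were higher there and 6 lower with edgeR. The loop cotransporter Slc12a1, which needs potassium recycled through Kcnj1, had between 270 and 375 CPM in kidneys and 0 in both ureters, and Fxyd2, the tubular subunit of the sodium-potassium pump, had between 410 and 457 CPM in kidneys against 2.90 and 2.57 CPM in the ureters. The partner of Kcnj8, Abcc9, did not follow Kcnj8: it had between 67.9 and 76.9 CPM in kidneys and 97.4 (KO) and 85.8 (WT) CPM in the ureters (log2 change -0.31, edgeR adjusted p = 0.037). The Kcnd partners parted ways, with Dpp6 higher in ureter (log2 change -2.76) and Dpp10, at between 2.2 and 3.48 CPM in kidneys, listed at 0 in both ureters. Between genotypes, 0 of the 40 partner genes tested in kidney passed in either direction.

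Between KO and WT kidney no member passed the test. Over 16481 genes, edgeR's quasi-likelihood test with Benjamini-Hochberg adjustment called 0 of 73 coding members tested higher and 0 lower in KO, against 0.0% and 0.0121% of all genes. At an unadjusted p under 0.05, 1 of the 73 was higher and 1 lower, 1.37% each, against 0.795% and 0.582% of all genes. With a fold over 2 required as well, 1 member was higher and 0 were lower, against 0.237% and 0.297% of all genes. DESeq2, limma on log2(TPM + 1) and limma on log2(TPM + 0.1) called 0 members too. The median log2 change was 0.06 over the members and -0.004 over all genes, and -0.08 over the members without KO kidney 1, the library with Xist. KO libraries lay both above both WT libraries for 12 members and both below for 9, which is 16.4% and 12.3% of those tested, against 12.7% and 13.5% of all genes.

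The 2 members past the unadjusted threshold were Kcna5 and Kcnj1. Kcna5, a delayed rectifier of atrium and vascular smooth muscle, had 3.73 and 4.52 CPM in KO kidneys and 2.48 and 1.26 CPM in WT kidneys (log2 change 1.14, SE 0.41, unadjusted p = 0.031, edgeR adjusted p = 0.999853), with no overlap. Kcnj1 had 34.6 and 31.3 CPM in KO kidneys and 40.5 and 52.7 CPM in WT kidneys (log2 change -0.50, SE 0.17, unadjusted p = 0.025, edgeR adjusted p = 0.999853), also with no overlap. Both depended on single libraries, since the unadjusted p of the edgeR fit rose to 0.129 for Kcna5 and 0.144 for Kcnj1 without WT kidney 2, and to 0.0685 and 0.0858 without KO kidney 2. The neighbours of Kcnj1 in its tubule segments did not share its direction: Kcnj16 (log2 change 0.07, SE 0.13) and Kcnj10 (-0.01, SE 0.16) overlapped between genotypes, and Slc12a1 stood at 317 and 278 CPM in KO and 270 and 375 CPM in WT kidneys. The tubule and podocyte markers summed to 1539 and 1234 CPM in KO kidneys and 1289 and 1501 CPM in WT kidneys.

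The members behind these by unadjusted p were all short of 0.05. Kcnj15 had 37.3 and 43.3 CPM in KO kidneys and 32.2 and 34.9 CPM in WT kidneys (log2 change 0.27, SE 0.14). Kcnu1, a sperm channel that was low here, had 0.429 and 0.406 CPM in KO and 1.14 and 0.804 CPM in WT kidneys (log2 change -1.21, SE 0.60). Kcnj12 (log2 change -1.01, SE 0.64), Kcnq5 (-0.71, SE 0.49) and Kcnb2 (-0.92, SE 0.65) had estimates below 0, as had Kcnip2 (-0.48, SE 0.34). Kcnj8 (0.22, SE 0.17), Kcnk3 (0.46, SE 0.38), Kcnq1 (0.22, SE 0.18) and Kcna1 (0.67, SE 0.61) had estimates above 0. Among the classes with more than 1 gene the medians ran from -0.15 for ether-a-go-go channels to 0.20 for auxiliary subunits. Estimates were higher in KO for 9 of 14 auxiliary, 11 of 17 voltage-gated, 5 of 8 calcium- or sodium-activated and 4 of 7 modifier members. They were higher for 5 of 13 inward rectifiers, 3 of 7 tandem-pore and 2 of 6 ether-a-go-go channels. Over all members tested this held for 40 of 73 (54.8%), and the median over all genes was -0.004. The study's own kidney tables hold Kcng4 and Kcnh4, which were chosen on these libraries and so are no independent evidence. Kcng4, a modifier subunit, had 0 and 28 counts in KO kidneys and 17 and 2 counts in WT kidneys. Its edgeR estimate lay above 0 with a wide error (log2 change 0.77, SE 1.73), while the study lists it as lower in KO. Kcnh4, an ether-a-go-go channel of brain, had 0 in both KO kidneys and 12 and 3 counts in WT kidneys, and it did not pass the filter on low counts.

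In the ureter 1 KO library stood against 1 WT library, so the values have no replicate error within this tissue and are given by size, with no test. Compared were 67 coding members that reached 10 counts in 1 ureter library or both. Of these, 7 (10.4%) were over 2-fold higher in KO and 8 (11.9%) over 2-fold lower on the scale of log2(CPM + 0.5), against 4.44% and 5.78% of 16117 genes compared in the same way. The median log2 ratio was -0.07 over the members and -0.02 over all genes. The count of higher members moved from 7 to 13 and that of lower members from 8 to 13 with a pseudocount of 0.1.

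**Figure D5:**
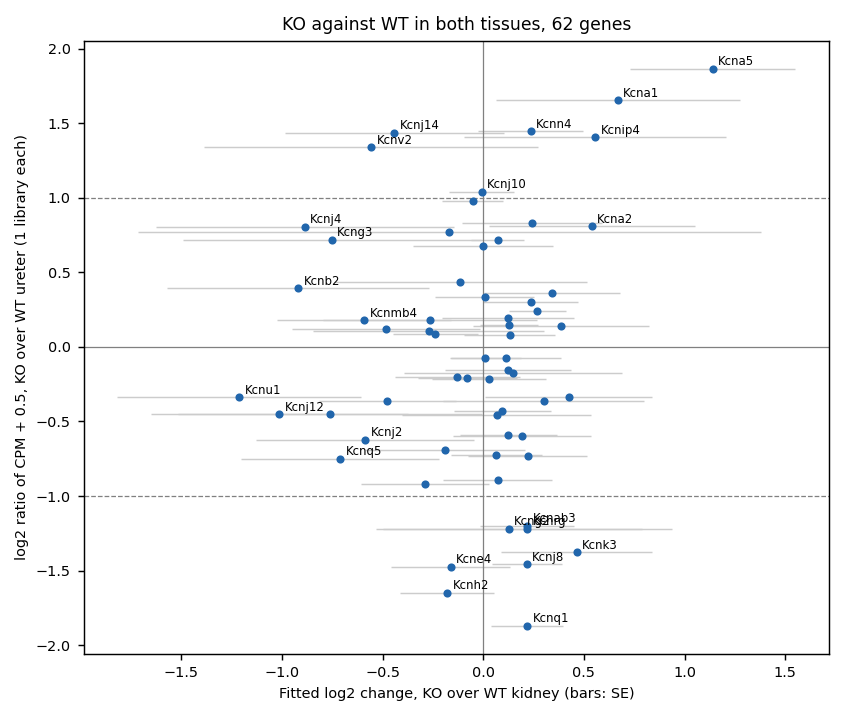
Log2 change of KO over WT for 62 members tested in kidney and compared in ureter, with the kidney estimate and its standard error on the horizontal axis and the log2 ratio of CPM + 0.5 in the 2 ureter libraries on the vertical axis, and dashed lines at a 2-fold difference. Kcna5 lies at the upper right, higher in KO in both tissues, and Kcnq1, Kcnh2, Kcne4, Kcnj8 and Kcnk3 form the lower edge, where ratios with 0 counts in 1 library depend on the pseudocount.

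The lower members included channels of heart and vessel wall. Kcnq1, which the study lists for ureter from these same libraries, had 0 counts in the KO ureter and 78 in the WT ureter, at least 15.1-fold lower with a limit of 3 counts. Kcnh2, the channel of late cardiac repolarization, had 11.3 CPM in KO and 37.0 CPM in WT (log2 ratio -1.65). Kcne4, a beta subunit that damps Kcnq1, had 5.54 and 16.5 CPM (log2 ratio -1.48). Kcnj8 had 12.6 and 35.9 CPM (log2 ratio -1.46), and Kcnk3 7.81 and 21.3 CPM (log2 ratio -1.38). In kidney the KO over WT estimates of these 5 genes lay between -0.18 and 0.46 on the log2 scale. Kcnab3 had 0.968 and 2.98 CPM (log2 ratio -1.20), and Kcng2 and Kcnrg were listed at 0 in KO and had 39 counts each in WT. Kcnrg lies over Trim13 and the non-coding Dleu2, so its reads may not be its own. The 8 striated and cardiac muscle markers summed to 338 CPM in the KO ureter and 637 CPM in the WT ureter, with 8 of 8 lower in KO and 4 of 8 over 2-fold lower, and to between 6.96 and 8.43 CPM in kidneys. Their part in the lower values of Kcnh2, Kcnq1 and Kcnk3 was not tested. The 6 smooth muscle markers summed to 6836 CPM in KO and 7574 CPM in WT, with none of 6 over 2-fold apart.

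The higher members were mostly low in level. Kcna5 had 11.6 CPM in KO and 2.78 CPM in WT (log2 ratio 1.87), in the direction its kidney values had. Kcnn4, the intermediate-conductance calcium-activated channel of epithelia and blood cells, had 17.7 and 6.18 CPM (log2 ratio 1.44), with 17.7 CPM above all kidney libraries, which ran from 4.79 to 6.94 CPM. Kcna1 had 2.44 and 0.389 CPM (log2 ratio 1.65), Kcnip4 2.37 and 0.545 CPM (log2 ratio 1.4) and Kcnv2 1.6 and 0.292 CPM (log2 ratio 1.34). Kcnj14 had 29 counts in KO and 0 in WT, and Kcnj10 had 18 counts in KO and 0 in WT, so their ratios are lower bounds of at least 16.7-fold and 10.4-fold. Kcnc2 had 1.47 and 0.467 CPM (log2 ratio 0.98). The 4 Kcna members compared all had ratios above 0, and the 4 Kcnq, 3 Kcnd and 3 Kcnab members compared all had ratios below 0. The other subfamilies with at least 3 members compared had both signs: Kcne, Kcng, Kcnh, Kcnip, Kcnj (5 above 0 and 4 below), Kcnk, Kcnmb and Kcnn. With 1 library a genotype these signs were not tested. Among members called higher in ureter than in kidney, the ratios went both ways and differed in size. Kcnk1 had a log2 ratio of 0.15, Kcnj15 of 0.24, Kcna2 of 0.81 and Kcne1 of 0.83. Below 0 were Kcnma1 at -0.15, Kcnmb1 at -0.36, Kcnip3 at -0.73 and Kcnk3 at -1.38, with other such members on either side.

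Whether the KO effect differed between ureter and kidney was tested as an interaction over all 6 libraries, in which the lone ureter libraries are assumed to vary like the kidneys. With edgeR's quasi-likelihood test, 0 of 80 coding members passed in either direction, against 0.0513% of 17557 genes with a more positive effect in ureter and 0.057% with a more negative one. At an unadjusted p under 0.05, 7 members (8.75%) had a more positive and 10 (12.5%) a more negative effect in ureter, against 4.92% and 7.46% of all genes. The nearest were Kcnq1 (edgeR adjusted p = 0.055), Kcnj10 (0.060) and Kcnj16 (0.080), each of them listed at 0 in 1 ureter library. Their fitted log2 effects, ureter minus kidney, were -9.61 for Kcnq1, 8.08 for Kcnj10 and 7.30 for Kcnj16. Leaving out 1 kidney library gave between -9.65 and -9.47, between 7.96 and 8.16, and between 7.14 and 7.34. Such a fit leaves 1 library in that kidney group, so its calls are not given. The sizes depend on the small count edgeR adds to a listed 0. The Wald test of DESeq2 called 4 members: Kcnj8 (adjusted p = 0.00069) and Kcnq1 (0.00835) with a more negative effect in ureter, and Kcnj10 (0.0217) and Kcnj14 (0.0371) with a more positive one. DESeq2 also called far more of all genes than edgeR did, 1.13% with a more positive and 1.58% with a more negative effect in ureter. Kcna5, for which KO lay above WT in each tissue, was not among them.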

How the data were processed

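Potassium channel genes were described in 6 bulk RNA-seq libraries of PN1 kidney and ureter from Ahnak KO and WT mice. The members, gene lists and tests were chosen with earlier results of these data known. The authors deposited, for 24532 genes, estimated counts as whole numbers, which were not normalized, and the deposited FPKM and TPM values normalized by length and depth; FPKM was not used in any result. According to its methods the study used a stranded mRNA kit (TruSeq), Cutadapt, STAR, Cufflinks and GRCm39, while the submitters' processing notes list Trimmomatic 0.38, HISAT2 2.1.0, StringTie 1.3.4b and mm10, so which steps made the table is not settled. A count of 0 is therefore the table's entry. It is not stated whether counting used the strand.

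Tests had been planned for read counts and were run on the deposited estimated counts with edgeR 4.0.16 in R 4.3.3: TMM factors, filterByExpr, glmQLFit, glmQLFTest and Benjamini-Hochberg adjustment over all genes tested, with a threshold of 0.05. Kidney against ureter had genotype as a term, KO against WT kidney used the 4 kidney libraries, and the ureters were compared by log2 ratios of CPM + 0.5. SE is the absolute log2 change divided by the root of the F statistic. Limits of 3 counts cover counting error only. Alternatives used DESeq2 1.42.0, limma 3.58.1 on TPM, other filters and scalings, and leaving out each library. The edgeR tests of tissue, genotype and interaction were checked on simulated counts. The simulated spread between libraries was smaller than the tissue and genotype fits estimated, so the check does not give error rates for these data. Named were the study's Kcn genes, the highest member of each subfamily in each tissue, the 12 largest tissue changes each way with an adjusted p under 0.05, no overlap and at least 1 CPM in the higher tissue, the 6 members each way with the smallest genotype p in kidney, the 8 largest ureter ratios each way with at least 20 counts, members past the interaction test, and channels with a textbook role. Other members called between tissues were named after their values were seen, to account for each call. Python 3.11.15 with pandas 2.3.3 was used for the rest. Some members that the rule names are not reported here; they stay in the counts.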

Additional observations from a re-analysis of the deposited data

How the results depend on the processing

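No member called between tissues changed sign when a library was left out. The median log2 change of the members was less firm: for kidney over ureter it went from 0.27 to -0.50 when at least 10 counts were required in every library, and for KO over WT kidney from 0.06 to -0.08 without KO kidney replicate 1. Requiring at least 10 counts in every library took the members higher in kidney from 21 to 11, since genes at 0 in ureter then drop out, and the fit of the 4 libraries with like column endings, an alternative chosen after seeing the data, took them to 8 and the lower ones from 16 to 11, with 1 residual degree of freedom. Leaving out each library in turn gave between 15 and 21 members higher and between 12 and 15 lower in kidney. Calling by the study's thresholds, a fold over 2 and an unadjusted p below 0.05, but with edgeR, gave 1 member higher in KO kidney (Kcna5) and 0 lower. Of all genes, 0.237% were higher and 0.297% lower by this rule. The study used DESeq and lists Kcng4 and Kcnh4 as lower in KO kidney. Here the edgeR estimate of Kcng4 had the opposite sign (log2 change 0.77, SE 1.73), and Kcnh4 did not pass the low-count filter. The replicate numbers of the kidney titles did not pair the libraries (correlation of deviations -0.193), the fit with a replicate block called 0 members in each direction, and a crossed replicate block, added after seeing the data, also called 0. For the interaction, DESeq2 called 2 members each way. Fits without 1 kidney library leave 1 library in that group, so their calls are not given. In the ureter, a pseudocount of 0.1 gave 13 members higher and 13 lower of 67, and TPM + 0.1 gave 13 and 12. Requiring at least 50 counts in the higher library left 46 members, of which 4 were higher and 6 lower. The cause of these shifts was not tested beyond the filters named. With 1 ureter library a genotype there is no error for the ureter ratios, and the tests rest on 3 residual degrees of freedom between tissues and 2 for genotype and interaction.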
